A study of Homo sapiens with 24 samples.

Results

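BT-474 cells that had received siRNA against HER2 were compared with BT-474 cells that had received a control siRNA, both under 10 nM estrogen for 4 h. Each group held 3 arrays, so the comparison rests on 6 of the 24 arrays of the series, and they were chosen by the siRNA, treatment and time in the sample titles. BT-474 is an established human breast cancer line in which ERBB2 is amplified and the estrogen receptor is present. All 24 arrays came from siRNA-treated cells of this line, in 8 groups of 3 that differ in siRNA, treatment (10 nM estrogen, or a vehicle of 0.001% ethanol) and time (4 or 24 h). The control siRNA groups with vehicle or estrogen at 4 h, and the same pair with HER2 siRNA, are used below, as are the estrogen groups at 24 h. The labels do not give the siRNA sequences, the time between siRNA and estrogen, or whether replicates were separate cultures. P-values therefore measure the spread between these arrays, which may be technical. The comparison asks what loss of HER2 did to gene expression in cells that had just met estrogen, in a study whose title names HER2, E2F1 and DNA synthesis.

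Expression was read on HG-U133 Plus 2.0 arrays, and a level is the deposited log2 RMA value of the brightest probe set of a gene. Differences are HER2 siRNA minus control siRNA on that log2 scale, with the standard error (SE) after ±, so that a difference of 1 is 2-fold. A gene was called when its adjusted p from limma was under 0.05. Arrays of 1 group correlated between 0.991 and 0.996, an array of HER2 siRNA and an array of control siRNA between 0.972 and 0.979, and array medians ran from 5.28 to 5.36. The luminal markers KRT8, KRT18, KRT19, CDH1 and EPCAM stood at 12.57 or higher on all 6 arrays, and GATA3, FOXA1 and ESR1 were above the detection filter. The basal keratins KRT5 and KRT14 and the mesenchymal factor ZEB1 stood below it, at 4.91 or lower. Some markers of mesenchymal and other cells passed it. VIM read 9.45 to 10.15, COL1A1 9.44 to 10.02, VWF 7.21 to 7.60 and FN1 5.34 to 5.86. The keratins thus did not go against the labelled line, but not every non-luminal marker was low.

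Some arrays need a remark before the results. HER2 siRNA replicate 3 is labelled 24 h in its source name and 4 h in its title, description and characteristics, and it was kept at 4 h. Genes that differed at least 2-fold between 24 h and 4 h of estrogen with HER2 siRNA were chosen without the array in question, and its level was set against the midpoint of the other arrays. Replicate 3 was closer to the 4 h arrays for 73 of 116 such genes (62.9%), while replicate 1 was for 51 of 52 and replicate 2 for 71 of 72. In the 24 h group, replicate 1 was closer to 4 h for 19 of 97 such genes (19.6%). HER2 siRNA replicate 1 has a running number apart from the other 5 arrays. For GAPDH, the 3' control probe set minus the 5' one, which grows as RNA is degraded, read 0.426, 0.529 and 0.398 with HER2 siRNA and 0.250, 0.370 and 0.258 with control siRNA. These groups did not overlap (exact permutation p = 0.1, 2-sided, the smallest that 3 against 3 arrays allow). The same measure for ACTB was 2.30, 1.32 and 0.935 with HER2 siRNA against 0.977, 1.02 and 0.960 (exact permutation p = 0.4), so replicate 1 stood highest.

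HER2 is a receptor tyrosine kinase without a ligand of its own that works in pairs with the other receptors of its family. In cells with an amplified gene it drives the RAS and MAPK cascade and the PI3K and AKT pathway. AKT keeps FOXO transcription factors out of the nucleus, and cyclin D with its kinases frees E2F factors from the pocket proteins, so that genes of DNA synthesis are transcribed. Estrogen acts on a nuclear receptor that binds enhancers and induces genes such as TFF1, PGR and GREB1 within hours.

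HER2 siRNA changed the expression of many genes in estrogen-treated cells. Of 14335 genes tested, 4886 were called (34.1%). Of these, 2408 rose (16.8%) and 2478 fell (17.3%), and the median difference over all genes was 0.00. Each count of called list members given below is to be read against these shares. The 3 arrays of each group did not overlap for 21.9% of genes with HER2 siRNA higher and 22.2% with it lower, against which each lack of overlap given below is to be read. Few were large: 302 genes fell at least 2-fold (2.11%) and 144 rose at least 2-fold (1%). The counts were 1924 higher and 2032 lower without HER2 siRNA replicate 3, and 2311 and 2250 without replicate 1. With this GAPDH measure as a covariate they were 1722 and 2052. The GAPDH measure moved with the siRNA for every gene group described below, and beyond this covariate its part in the results was not tested. With all array medians set equal, the split of calls was 2084 higher to 2685 lower.

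The targeted gene itself fell. ERBB2, on chromosome 17, stood at 13.63, 13.57 and 13.49 on the control arrays and at 12.20, 12.12 and 12.32 on the HER2 siRNA arrays. The lowest control array lay more than 1 log2 unit above the highest HER2 siRNA array. The difference was -1.35 ± 0.11 (adjusted p = 8.42e-09). ERBB2 RNA was thus at 39.2% of control, with a 95% confidence interval of 33.4 to 46.0%. The other probe sets of ERBB2, which read at far lower levels, differed by -1.66 ± 0.16 and -1.46 ± 0.19.

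ERBB3 and ERBB4, the partners of HER2 that bind neuregulins, rose as ERBB2 fell. ERBB3 stood at 10.96, 11.05 and 11.04 with control siRNA and at 11.92, 12.05 and 12.08 with HER2 siRNA. Its difference of 1.00 ± 0.09 (adjusted p = 2.24e-08) put it at 200% of the control level, with no overlap of arrays. ERBB4 went from 6.17, 6.48 and 6.28 to 7.27, 7.62 and 7.86, a difference of 1.27 ± 0.15 (adjusted p = 1.22e-06), and replicate 3 was the highest. The mean of its probe sets differed by 0.57. EGFR, the remaining receptor, differed by 0.12 ± 0.17 and its arrays overlapped. One of its 8 probe sets passed the threshold, at -0.33. The 7 ligands tested did not pass. EGF (-0.34 ± 0.19), TGFA (-0.23 ± 0.15) and HBEGF (-0.21 ± 0.16) had negative values, and EREG, BTC, NRG1 and NRG2 lay between 0.02 and 0.07. Over the family of 11 tested genes, 2 rose and 1 fell, which is 27.3% called against 34.1% over all genes.

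**Figure D1:**
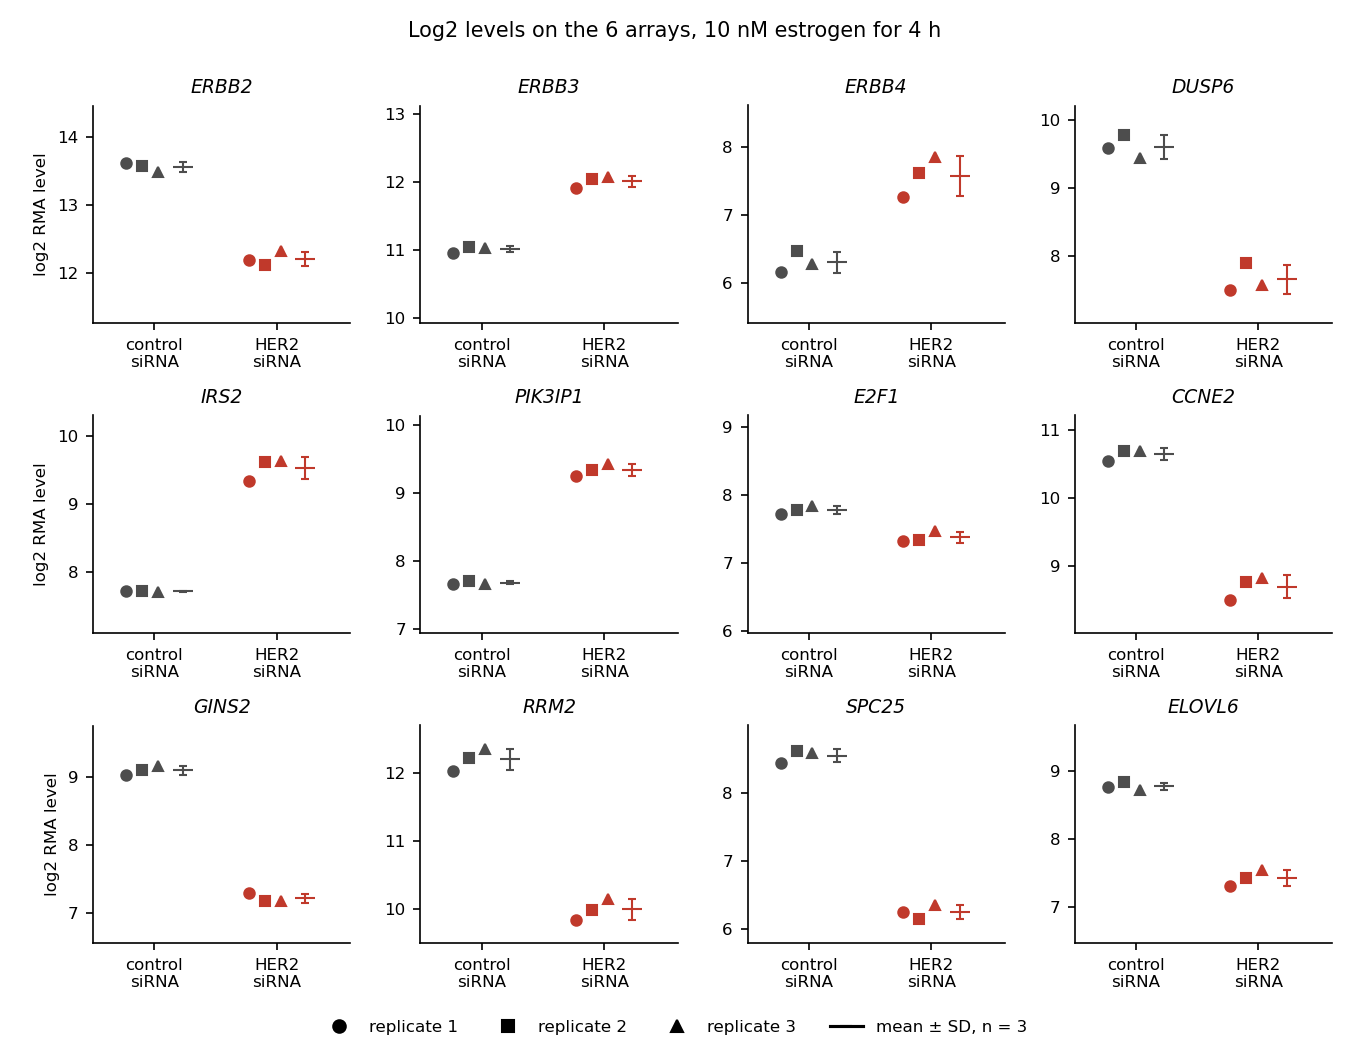
Log2 RMA level of 12 genes on the 6 arrays under 10 nM estrogen for 4 h, with control siRNA in grey and HER2 siRNA in red; symbols mark replicates 1 to 3, and the bar beside them is the mean ± SD (n = 3). Each panel spans the same log2 range, and in every panel the 3 HER2 siRNA arrays lie wholly above or wholly below the 3 control arrays, by little for E2F1 (-0.40) and by most for SPC25 (-2.30).

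Genes that report on the MAPK cascade fell. These are the phosphatases and inhibitors that ERK signalling induces as its own brake, and the ETS factors it induces. Of 19 tested, 11 fell and none rose, with a median of -0.51 against 0.00 over all genes. DUSP6, a phosphatase that acts on ERK, stood at 9.58, 9.78 and 9.43 with control siRNA and at 7.50, 7.89 and 7.56 with HER2 siRNA. Its difference of -1.94 ± 0.14 (adjusted p = 2.42e-09) left 26.0% of the control level. DUSP4, a nuclear phosphatase of the same family, fell from 11.81, 11.71 and 11.75 to 10.20, 10.06 and 10.00 (-1.67 ± 0.10). SPRED1, which restrains RAS, fell by 1.66 ± 0.20, its relative SPRED2 by 0.88 ± 0.10 and the phosphatase DUSP7 by 0.97 ± 0.11. CCND1, which encodes cyclin D1, fell less, from 10.38, 10.34 and 10.22 to 9.59, 9.79 and 10.03 (-0.51 ± 0.11, adjusted p = 0.0015). Replicate 3 of HER2 siRNA lay closest to the controls for this gene.

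Immediate early genes, which answer growth factor signals within minutes, were called about as often as genes in general. Of 15 tested, 4 fell and 1 rose (33.3% against 34.1% over all genes), and the median was 0.02. EGR3, a zinc finger factor that estrogen also induces, stood at 5.84, 6.57 and 6.39 with control siRNA and 5.16, 5.46 and 5.53 with HER2 siRNA (-0.88 ± 0.21, adjusted p = 0.00213). JUN, a subunit of AP-1, fell by 0.44 ± 0.10, and KLF2 by 0.60 ± 0.10. NR4A2 fell by 0.27 ± 0.09 (adjusted p = 0.0253) and KLF4 rose by 0.30 ± 0.10 (adjusted p = 0.0218). Both of these calls ended when some single arrays were left out: the adjusted p was up to 0.116 for NR4A2, without HER2 siRNA replicate 1, and up to 0.0935 for KLF4. Both also lost their calls with the GAPDH covariate (adjusted p = 0.071 and 0.102), and KLF4 with equal array medians (0.0556). With the replicate number as a block, 2 immediate early genes rose.

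FOXO-induced genes rose, together with the insulin receptor axis. Of 27 tested, 16 rose and 1 fell, with a median of 0.58. PIK3IP1, an inhibitor of PI3K, stood at 7.66, 7.70 and 7.66 with control siRNA and at 9.24, 9.33 and 9.42 with HER2 siRNA, a difference of 1.66 ± 0.10 (adjusted p = 1.98e-10). IRS2, an adaptor of the insulin and IGF1 receptors, went from 7.72, 7.72 and 7.71 to 9.34, 9.62 and 9.63 (1.81 ± 0.15). These are 3.15-fold and 3.52-fold rises with wide gaps between the groups. INSR, the insulin receptor, rose by 1.15 ± 0.14, KLHL24 by 1.59 ± 0.16 and CITED2, a coactivator-binding protein, by 1.35 ± 0.14. FBXO32, an F-box protein known from muscle atrophy, rose from 7.21, 8.05 and 8.15 to 9.33, 9.80 and 10.22 (1.98 ± 0.26), and DEPP1 by 1.94 ± 0.29. With the mean of probe sets PIK3IP1 (0.95), KLHL24 (0.95), FBXO32 (1.13) and DEPP1 (1.08) rose by less. The genes of FOXO1 (1.17) and FOXO3 (0.74) themselves were among the rises, and SESN1 was the 1 that fell (-0.36), these being picked out after their values were seen. SESN2, a stress-induced regulator of mTORC1, missed the threshold (0.37 ± 0.14, adjusted p = 0.0505) and passed it with the replicate block (adjusted p = 0.0142).

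Most E2F genes fell, and so did most genes for the machinery of DNA synthesis. E2F1, which the series title names, stood at 7.72, 7.78 and 7.85 with control siRNA and 7.32, 7.35 and 7.48 with HER2 siRNA. The groups did not overlap, and the difference was -0.40 ± 0.14 (adjusted p = 0.0269), which left 75.7% of the control level. This call ended when HER2 siRNA replicate 1 or 2 or control replicate 2 or 3 was left out, with an adjusted p between 0.0600 and 0.0845. It also ended with the GAPDH covariate (adjusted p = 0.0618) and without the 3 arrays numbered apart (0.0832). The dimmer probe set of E2F1 differed by -0.36 ± 0.11 when every probe set was tested on its own (limma, adjusted p = 0.0166). Other members fell further. E2F7, an E2F of the repressor type, went from 7.89, 7.97 and 8.14 to 5.69, 5.25 and 5.14 (-2.64 ± 0.24), and E2F8, its close relative, fell by 1.74 ± 0.25. The mean of probe sets was -1.42 for E2F7 and -0.62 for E2F2. E2F2 fell by 1.37 ± 0.13 and E2F3 by 0.89 ± 0.10, both activators. E2F5 fell by 0.61 ± 0.11 and the dimer partner TFDP1 by 0.39 ± 0.09. E2F6 (-0.25 ± 0.09, adjusted p = 0.0385) lost its call without HER2 siRNA replicate 1 or 3 or control replicate 2 or 3. E2F4, TFDP2, RB1 and RBL2, the last 2 of which encode pocket proteins, lay between -0.18 and 0.32 and did not pass. For TFDP2 this rests on the probe set taken. A nearly as bright one passed as a rise (0.42 ± 0.13), as did a dim one (0.65 ± 0.20), while a further one differed by -0.13 ± 0.09. In all, 8 of 12 fell on their brightest probe sets, with a median of -0.39, and none rose.

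Genes of cyclins and kinases of the G1 and S phases fell, and that of a kinase inhibitor rose. CCNE2, which encodes a cyclin E that activates CDK2, stood at 10.54, 10.70 and 10.69 with control siRNA and at 8.50, 8.77 and 8.82 with HER2 siRNA (-1.95 ± 0.09, adjusted p = 6.67e-12). This left 26.0% of the control level. CDC25A, a phosphatase that activates CDK2, fell by 1.46 ± 0.13, the kinase-binding CKS1B by 1.19 ± 0.11 and CDK2 itself by 0.83 ± 0.08. CDKN1C, an inhibitor of cyclin-dependent kinases, went the other way, from 6.77, 6.79 and 6.70 to 8.25, 8.15 and 8.46 (1.53 ± 0.12, adjusted p = 5.86e-09). All 4 of its probe sets rose. Of 16 genes in this list 11 fell and 1 rose, with a median of -0.49.

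Genes of the helicase and its loading factors fell almost as a whole. Of 29 genes for origin licensing, firing and the replicative helicase, 26 fell and 20 of these at least 2-fold, with a median of -1.21. GINS2, a subunit of the GINS complex that the helicase carries, stood at 9.03, 9.10 and 9.17 with control siRNA and at 7.29, 7.17 and 7.18 with HER2 siRNA (-1.88 ± 0.08, adjusted p = 2.38e-12), with -0.75 for the mean of its probe sets. MCM6, a ring subunit, went from 10.70, 10.98 and 10.89 to 9.35, 9.41 and 9.32 (-1.50 ± 0.08), and MCM5 fell by the same 1.50. CDC6, which loads the ring, fell by 2.17 ± 0.16, CDC45, which activates it, by 1.84 ± 0.13 and the kinase CDC7 by 1.56 ± 0.10. MCM10 had the largest fall of the list, from 8.13, 8.59 and 8.48 to 5.03, 5.96 and 6.26 (-2.65 ± 0.23). The 3 members that did not pass, ORC2, ORC3 and ORC4, are origin recognition subunits and lay between -0.18 and 0.07. In bulk RNA, fewer cells in S phase or mitosis and less RNA of these genes per cell cannot be told apart.

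The sequences shown are the 250 bases before the transcription start of 3 genes of DNA synthesis and 1 FOXO-induced gene (RefSeq, GRCh38.p14), since E2F and FOXO factors are known to bind such promoters. Capitals mark matches on either strand. In the first 3 these are matches to the E2F motif TTCCCGC, to its form TTGGCGC, or to the further form TTGCCGC. In the fourth the motif is GTAAACA, which FOXO factors bind. GINS2 is read from the minus strand of chromosome 16 (85688955 to 85689204), MCM6 from the minus strand of chromosome 2 (135876444 to 135876693), CDC7 from the plus strand of chromosome 1 (91500601 to 91500850) and TXNIP from the minus strand of chromosome 1 (145996580 to 145996829). The genes are those with the smallest p among list members that hold a match.
GINS2: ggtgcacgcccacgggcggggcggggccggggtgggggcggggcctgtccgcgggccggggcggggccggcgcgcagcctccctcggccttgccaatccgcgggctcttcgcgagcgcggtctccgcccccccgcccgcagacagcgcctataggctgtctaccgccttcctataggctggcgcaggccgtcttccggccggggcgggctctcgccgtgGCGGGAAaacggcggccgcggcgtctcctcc
MCM6: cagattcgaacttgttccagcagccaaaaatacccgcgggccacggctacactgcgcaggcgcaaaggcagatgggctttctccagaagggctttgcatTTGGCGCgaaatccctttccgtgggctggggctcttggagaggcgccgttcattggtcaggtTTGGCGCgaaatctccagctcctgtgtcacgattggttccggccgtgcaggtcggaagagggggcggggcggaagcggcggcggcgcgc
CDC7: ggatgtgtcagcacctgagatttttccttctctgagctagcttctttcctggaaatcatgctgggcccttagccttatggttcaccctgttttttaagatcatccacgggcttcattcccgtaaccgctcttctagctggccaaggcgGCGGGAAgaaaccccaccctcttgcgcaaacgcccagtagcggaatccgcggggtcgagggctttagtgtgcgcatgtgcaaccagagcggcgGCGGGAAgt
TXNIP: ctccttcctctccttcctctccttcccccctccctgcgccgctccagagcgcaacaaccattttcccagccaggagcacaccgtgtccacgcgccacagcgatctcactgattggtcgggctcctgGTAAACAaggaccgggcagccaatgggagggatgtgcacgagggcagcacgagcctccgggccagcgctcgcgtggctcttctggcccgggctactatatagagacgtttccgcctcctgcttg
The match in GINS2 begins 31 bases before the start, those in MCM6 at 151 and 89, those in CDC7 at 102 and 9, and the match in TXNIP at 124. TXNIP, which encodes a thioredoxin-binding protein and rose by 0.79, was picked by this rule.

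A promoter was on hand for 11448 of the 14335 tested genes, and 14.1% of these held at least 1 of the E2F motifs. The share was 23.6% among genes that fell at least 2-fold (60 of 254) and 11.4% among genes that rose at least 2-fold (13 of 114). Among list members it was 36.0% for helicase and origin genes (9 of 25), 42.9% for polymerases and clamp factors (9 of 21), 40.0% for E2F and pocket protein genes (4 of 10) and 19.4% for mitosis genes (7 of 36). Other lists of which many members fell held few: 1 of 12 G1 and S genes (8.3%), 1 of 16 purine and pyrimidine genes (6.2%), none of 7 serine and folate genes and none of 12 MAPK genes. The share was 30.0% for deoxynucleotide genes (3 of 10) and 31.2% for recombination repair genes (5 of 16). Lists of other functions came near these, with 30.0% of interferon genes (3 of 10), 29.2% of hypoxia and glycolysis genes (7 of 24) and 26.1% of estrogen-induced genes (6 of 23). The FOXO motif was held by 2.0% of tested genes, 6.1% of genes that rose at least 2-fold (7 of 114) and 2.0% of those that fell as much. In the list of FOXO-induced and insulin receptor genes only 2 of 24 held it (8.3%), TXNIP among them. Over all 27305 promoters in the table the shares were 9.5% for the E2F motifs and 3.0% for the FOXO motif. The median content of G and C was 64.4% in promoters of tested genes, 63.6% for large falls and 61.0% for large rises. Matches describe the letters in this window and were not tested as binding sites, and matches to different E2F motifs can overlap.

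Genes of polymerases, the sliding clamp and factors of Okazaki fragments fell too. Of 25 tested, 21 fell and 1 rose, with a median of -0.71. POLE2, a subunit of polymerase epsilon, stood at 8.10, 8.28 and 8.35 with control siRNA and at 6.16, 6.12 and 6.36 with HER2 siRNA (-2.03 ± 0.15, adjusted p = 1.94e-09). PCNA, the clamp, went from 12.23, 12.49 and 12.66 to 10.92, 11.12 and 11.22 (-1.37 ± 0.11). Its lowest control array lay above every HER2 siRNA array. POLA2, of the primase complex, fell by 1.40 ± 0.11, the clamp loader subunit RFC4 by 1.23 ± 0.08 and RNASEH2A, which removes RNA primers, by 1.21 ± 0.11. POLD4, a small subunit of polymerase delta, was the 1 that rose (0.57), named here after its value was seen.

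Genes of deoxynucleotide supply fell along with those of DNA synthesis. RRM2, the regulated subunit of ribonucleotide reductase, stood at 12.04, 12.22 and 12.35 with control siRNA and at 9.84, 9.98 and 10.15 with HER2 siRNA. The difference of -2.21 ± 0.11 (adjusted p = 2.47e-11) put it at 21.6% of control, with a 95% confidence interval of 18.3 to 25.5%. TYMS, thymidylate synthase, went from 11.58, 11.73 and 11.90 to 9.73, 9.55 and 9.78 (-2.05 ± 0.14). TK1, the thymidine kinase of S phase, fell by 1.91 ± 0.14, the thymidylate kinase DTYMK by 0.97 ± 0.09 and RRM1, the large reductase subunit, by 0.91 ± 0.08. Of 11 tested, 7 fell and none rose, with a median of -0.91. RRM2B, SAMHD1, TK2 and DCTD did not pass and lay between -0.28 and -0.09.

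Genes of the pathways that make the bases were called in part. Of 18 genes of purine and pyrimidine synthesis, 8 fell and none rose (44.4% called against 34.1% over all genes), with a median of -0.21. CTPS1, which makes CTP, stood at 7.32, 7.49 and 7.28 with control siRNA and at 5.47, 5.61 and 5.85 with HER2 siRNA (-1.72 ± 0.11, adjusted p = 3.2e-10). PPAT, the first committed enzyme of purine synthesis, fell by 1.23 ± 0.12, the nucleoside diphosphate kinase NME1 by 0.99 ± 0.10 and PAICS by 0.38 ± 0.07. Of 9 serine and folate enzymes 4 fell (44.4%), with a median of -0.13. PSAT1, an aminotransferase of serine synthesis, went from 10.08, 10.20 and 10.10 to 8.90, 9.06 and 8.93 (-1.16 ± 0.08), while PHGDH, the first enzyme of that path, differed by 0.14 ± 0.12. MTHFD1 fell by 0.58 ± 0.08 and the mitochondrial MTHFD2 by 0.35 ± 0.08.

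Every one of the 43 mitosis genes tested fell, 38 of them at least 2-fold, with a median of -1.43. The count was 43 without each of the 6 arrays in turn, with the GAPDH covariate, and with the other scalings. SPC25, of the kinetochore, stood at 8.44, 8.62 and 8.58 with control siRNA and at 6.25, 6.14 and 6.35 with HER2 siRNA (-2.30 ± 0.14, adjusted p = 1.91e-10). CDK1, the kinase that starts mitosis, went from 10.64, 10.85 and 10.79 to 8.54, 8.79 and 8.90 (-2.01 ± 0.14), which left 24.7%. NCAPH, of the condensin complex, fell by 1.99 ± 0.13, TOP2A, which untangles chromosomes, by 1.74 ± 0.14. The kinase MELK fell by 1.73 ± 0.10. CENPA (-0.77), the centromeric histone, had the smallest fall of the list, named after its value was seen.

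Genes of recombination repair and the S phase checkpoint fell in the same range. Of 18 tested, 13 fell and none rose, with a median of -1.21. DTL, a substrate receptor of an ubiquitin ligase that acts at PCNA, had the largest fall of all genes tested. It stood at 9.27, 9.60 and 9.50 with control siRNA and at 6.70, 6.63 and 6.86 with HER2 siRNA (-2.72 ± 0.12, adjusted p = 2.38e-12), which left 15.2% of the control level. The exonuclease EXO1 fell by 2.20 ± 0.17, RAD51AP1 by 2.16 ± 0.14 and the helicase BLM by 1.67 ± 0.13. BRCA1, which guides repair by recombination, fell by 1.76 ± 0.13, from 8.21, 8.39 and 8.63 to 6.62, 6.54 and 6.79. XRCC3, FANCL, PALB2, XRCC2 and ATM did not pass, at -0.18 to 0.28.

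**Figure D2:**
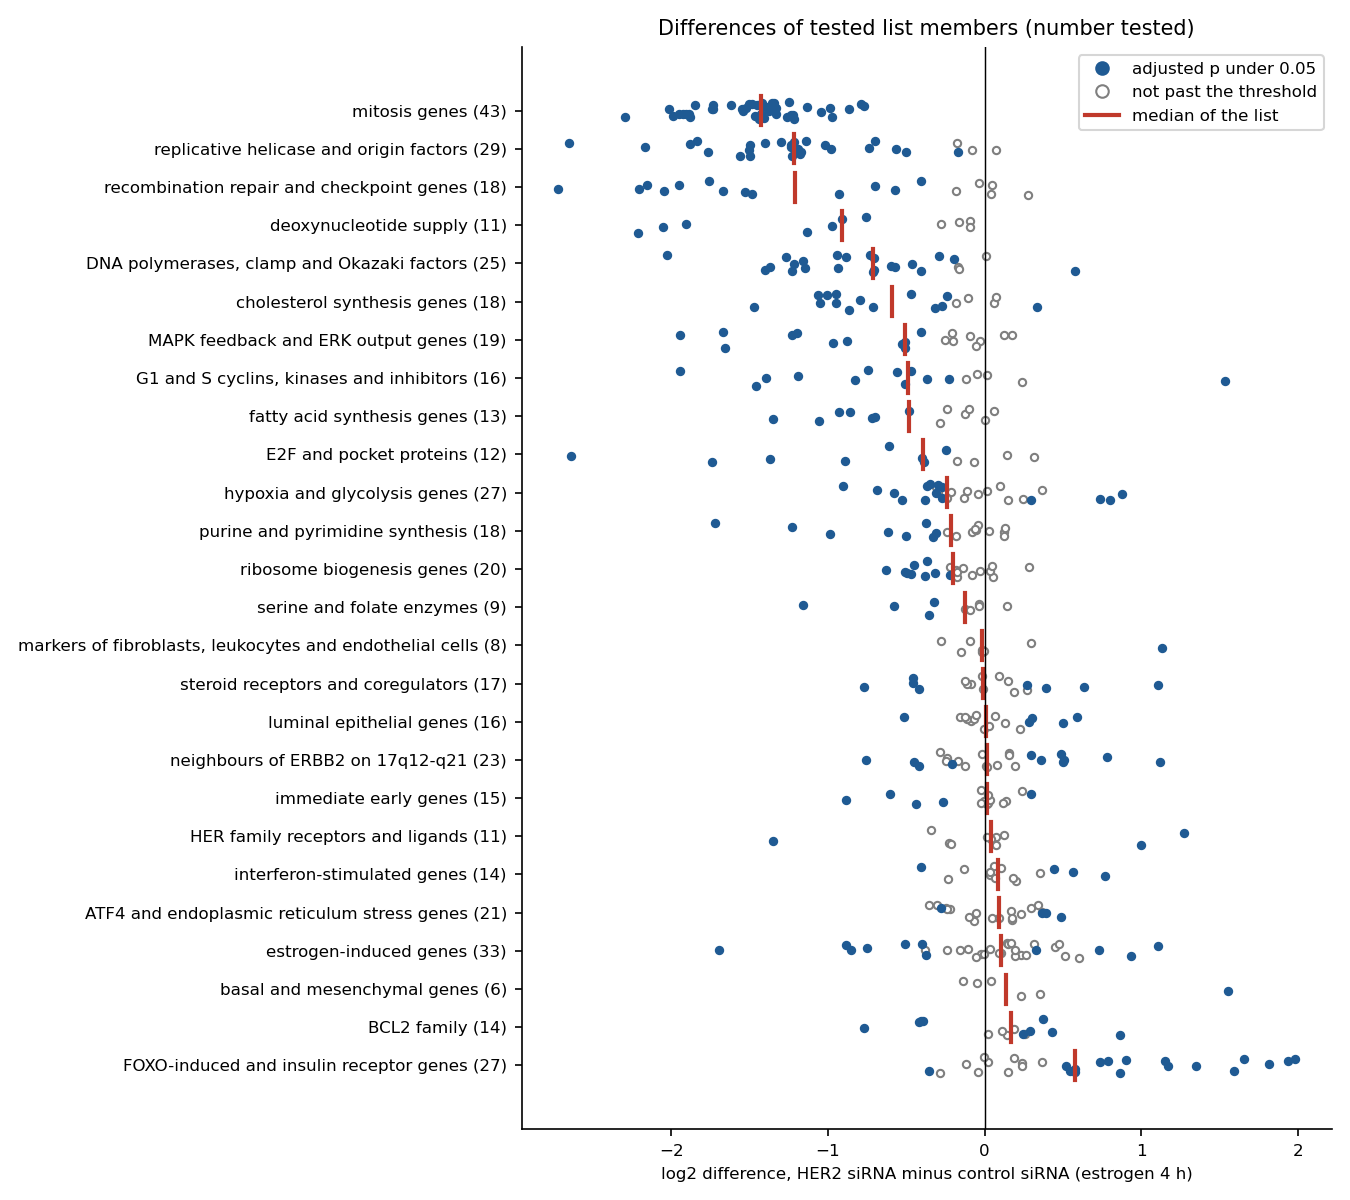
Log2 difference (HER2 siRNA minus control siRNA, estrogen 4 h) of each tested member of the 26 gene lists, ordered by the median of the list in red; filled points passed an adjusted p of 0.05 (limma) and open points did not, and the number tested is in brackets. Mitosis genes lie farthest left (median -1.43, 43 of 43 past the threshold) and FOXO-induced genes farthest right (0.58, 16 of 27 rose).

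Genes of cholesterol and fatty acid synthesis fell. Of 18 cholesterol genes 13 fell and 1 rose, with a median of -0.59. INSIG1, a sterol sensor and a target of SREBP factors, stood at 10.88, 10.69 and 10.79 with control siRNA and at 9.37, 9.37 and 9.20 with HER2 siRNA (-1.47 ± 0.16, adjusted p = 4.1e-07). HMGCS1, HMG-CoA synthase, fell by 1.00 ± 0.11, EBP by 0.95 ± 0.10 and SQLE, squalene epoxidase, by 0.71 ± 0.08. IDI1 fell by 1.05 ± 0.09 on its brightest probe set, and its 4 probe sets disagreed: a further one fell by 0.92 ± 0.11, and the dimmest rose by 0.57 ± 0.18. The 1 rise, the sterol reductase TM7SF2 (0.33), named after its value was seen, was lost without HER2 siRNA replicate 3 or control replicate 2 or 3. Of 13 fatty acid genes 7 fell and none rose, with a median of -0.48. ELOVL6, an elongase, went from 8.76, 8.83 and 8.72 to 7.30, 7.42 and 7.54 (-1.35 ± 0.13). SCD, the stearoyl-CoA desaturase, fell from 12.27, 12.52 and 12.43 to 11.47, 11.57 and 11.38 (-0.93 ± 0.08), and its relative SCD5 by 1.05 ± 0.11. ACLY (-0.72 ± 0.07), FADS2 (-0.70 ± 0.08), ME1 (-0.86 ± 0.17) and ACACA (-0.48 ± 0.07) fell as well. FASN, fatty acid synthase, differed by -0.24 ± 0.10 (adjusted p = 0.0775) and ACSL1 by -0.29 ± 0.11 (adjusted p = 0.0587). Both passed with the replicate block (adjusted p = 0.0469 and 0.0334). SREBF1, THRSP, ACACB and ELOVL5 lay between -0.13 and 0.06 and did not pass.

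Glycolysis genes and hypoxia-induced genes went both ways. Of 27 in this list 11 fell and 4 rose, with a median of -0.24. LDHA, lactate dehydrogenase, stood at 12.51, 12.31 and 12.19 with control siRNA and at 11.45, 11.48 and 11.37 with HER2 siRNA (-0.90 ± 0.11), and the pyruvate kinase PKM fell by 0.69 ± 0.10. The histone demethylase KDM3A, from 9.77, 9.74 and 9.64 to 10.48, 10.65 and 10.65, rose by 0.88 ± 0.08. NDRG1 rose by 0.80 ± 0.10 and ANKRD37 by 0.73 ± 0.09. All 3 are known as hypoxia-induced, and the phosphofructokinase PFKM (0.30), named after its value was seen, was the remaining rise. Among 20 ribosome biogenesis genes 9 fell and none rose (median -0.20), which is 45% called against 34.1% over all genes. The falls were led by NOP16 (-0.63 ± 0.09), NOLC1 (-0.51 ± 0.08) and NOP58 (-0.47 ± 0.08). The number that fell was as low as 6, without control replicate 2.

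Genes that estrogen induces were called after HER2 siRNA at about the rate of all genes, in both directions. The list was drawn from genes known to rise with estrogen in breast cancer cells, and at 4 h 13 of 33 rose with control siRNA and 20 of 33 with HER2 siRNA. Over all genes 0.335% rose in the first of these comparisons and 0.663% in the second. Between the siRNAs under estrogen, 4 of the 33 rose and 7 fell, with a median of 0.11, which is 33.3% called against 34.1% over all genes. TFF1, a secreted trefoil peptide and a standard estrogen readout, stood at 11.94, 12.33 and 12.33 with control siRNA and at 11.87, 12.23 and 12.44 with HER2 siRNA. These arrays overlapped, and the difference was -0.02 ± 0.16 (95% confidence interval -0.35 to 0.31). PGR, the progesterone receptor, rose from 10.65, 11.15 and 11.53 to 11.62, 12.28 and 12.76 (1.11 ± 0.25, adjusted p = 0.00175). The groups did not overlap, and replicate 1 was the lowest array of PGR in both. HEY2, a transcriptional repressor downstream of Notch, rose by 0.93 ± 0.16 and SUSD3 by 0.73 ± 0.14. TFF3 rose by 0.33 ± 0.13 (adjusted p = 0.0488), and this call ended without HER2 siRNA replicate 2 or 3 or control replicate 1 or 2 (adjusted p up to 0.262), with equal array medians (0.0715) and with the GAPDH covariate (0.084).

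MYBL1, a transcription factor of the MYB family, had the largest fall among estrogen-induced genes on the brightest probe sets, from 6.83, 7.75 and 7.79 to 5.25, 5.78 and 6.26 (-1.69 ± 0.29, adjusted p = 8.53e-05). Its other probe set, nearly as bright, differed by -0.17 ± 0.12 and did not pass, the mean of both was -0.66, and RET has a probe set at -1.89, so this rank rests on the probe set taken. The carbonic anhydrase CA12 fell by 0.85 ± 0.21, the receptor tyrosine kinase RET by 0.75 ± 0.19, TPD52L1 by 0.37 ± 0.08 and PKIB, an inhibitor of protein kinase A, by 0.40 ± 0.12. The PKIB call ended without control replicate 2 (adjusted p = 0.0615). EGR3 and CCND1, described above, complete the 7. MYC stood at 9.33, 9.92 and 9.82 with control siRNA and at 9.54, 10.31 and 10.56 with HER2 siRNA, with overlap (0.45 ± 0.24, adjusted p = 0.162). GREB1 was similar, from 9.03, 9.76 and 9.84 to 9.38, 10.43 and 10.64 (0.61 ± 0.27, adjusted p = 0.0903). With the replicate block 8 members rose and 8 fell. GREB1, CISH, KCNK5 and MYB joined the rises (adjusted p = 0.0101, 0.00572, 0.0443 and 0.0488) and RERG the falls (0.0227). Without HER2 siRNA replicate 1, the array numbered apart, 8 rose too. That array was the lowest of its group for TFF1, PGR, MYC, GREB1 and MYBL1. Control replicate 1, which is not numbered apart, was the lowest of the control group for the same genes.

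Estrogen responses at 4 h are set side by side, since the comparisons share arrays. Estrogen raised MYC by 2.30 ± 0.24 with control siRNA and by 2.78 ± 0.24 with HER2 siRNA, and TFF1 by 1.34 ± 0.16 and 1.95 ± 0.16. PGR rose by 1.25 ± 0.25 and 1.51 ± 0.25, HEY2 by 2.03 ± 0.16 and 2.24 ± 0.16, and SUSD3 by 0.82 ± 0.14 and 1.58 ± 0.14. RARA, a retinoic acid receptor, rose by 1.18 in both. EGR3 rose with control siRNA (1.05 ± 0.21, adjusted p = 0.0209), and with HER2 siRNA its difference was 0.22 ± 0.21. With vehicle, MYBL1 stood at 6.10, 6.57 and 6.75 with control siRNA and at 3.81, 3.82 and 4.23, below the filter of 5, with HER2 siRNA. It rose with estrogen by 1.81 ± 0.29 after HER2 siRNA and differed by 0.98 ± 0.29 (adjusted p = 0.355) after control siRNA. The median of the 33 was 0.56 with control siRNA and 0.91 with HER2 siRNA.

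**Figure D3:**
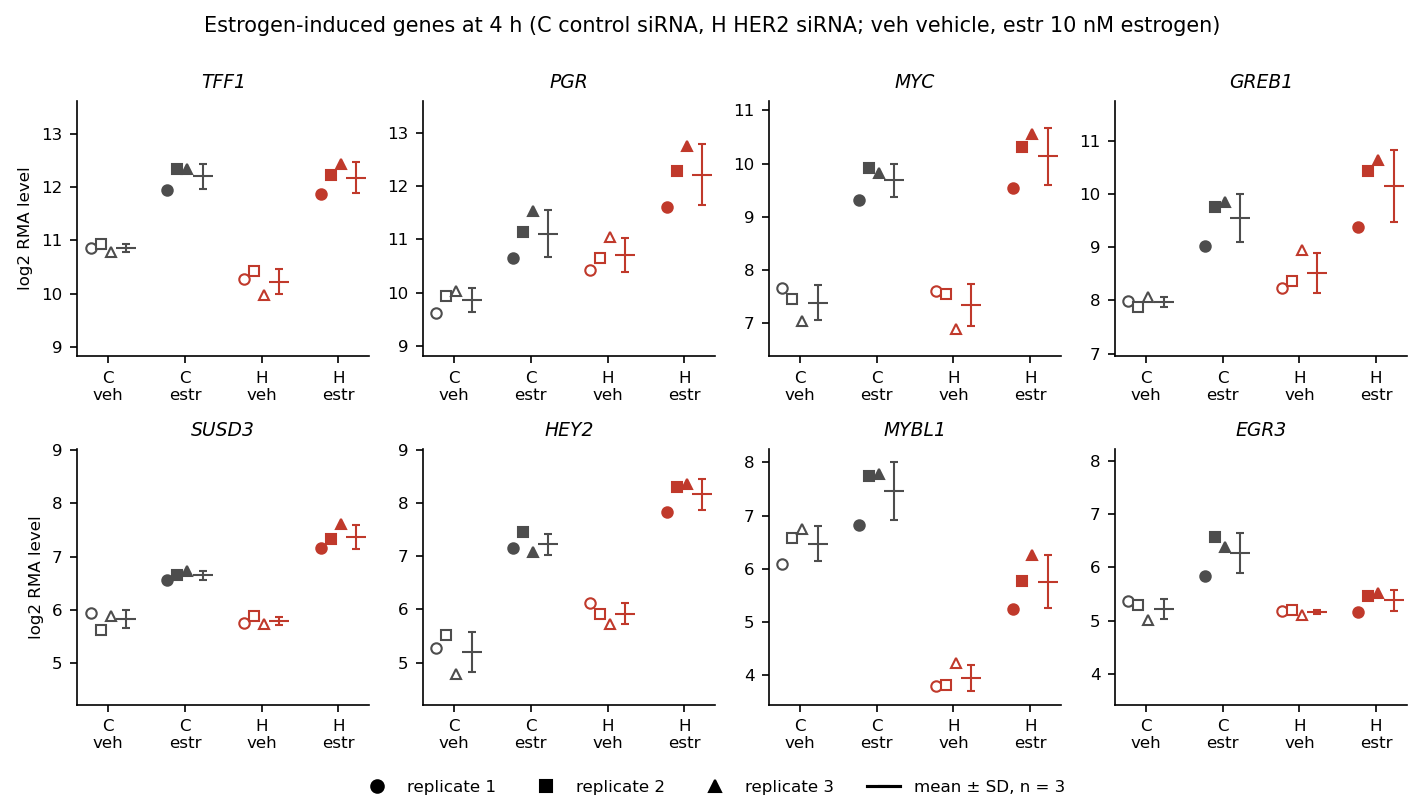
Log2 RMA level of 8 estrogen-induced genes in the 4 groups at 4 h: control siRNA (C, grey) and HER2 siRNA (H, red), with vehicle (open symbols) or 10 nM estrogen (filled symbols); symbols mark replicates and bars the mean ± SD (n = 3). TFF1 arrays of the estrogen groups overlap (difference -0.02), PGR and SUSD3 lie higher after HER2 siRNA with estrogen (1.11 and 0.73), and MYBL1 lies lower after HER2 siRNA with either treatment.

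The estrogen receptor itself showed no call. ESR1 stood at 8.74, 9.05 and 8.97 with control siRNA and at 8.69, 8.79 and 9.01 with HER2 siRNA (-0.09 ± 0.15, 95% confidence interval -0.41 to 0.23), and ESR2 differed by -0.01 ± 0.10. Of 17 steroid receptor and coregulator genes 4 rose and 4 fell (47.1% called against 34.1% over all genes), with a median of -0.01. Besides PGR, the glucocorticoid receptor NR3C1 rose by 0.63 ± 0.11, NCOA2, a p160 coactivator, by 0.39 ± 0.10 and NCOA4 by 0.27 ± 0.07. The methyltransferases CARM1 (-0.46 ± 0.08) and PRMT1 (-0.42 ± 0.10), which modify histones at receptor-bound genes, fell, as did the coactivators NCOA6 (-0.46 ± 0.10) and PPARGC1B (-0.77 ± 0.17). With the GAPDH covariate 2 of the 4 rises were left, as NCOA2 and NCOA4 lost their calls (adjusted p = 0.0891 and 0.0822). NCOA2 and PRMT1 lost theirs with the mean of their probe sets (adjusted p = 0.0812 and 0.0657). NCOA1, MED1, EP300 and CREBBP lay between -0.13 and 0.19 and did not pass. NCOA3, which encodes the SRC-3 of the series title, was not analysed here.

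Neighbours of ERBB2 on chromosome 17 moved in both directions. Of 23 tested, 7 rose and 4 fell (47.8% called against 34.1% over all genes), and the median was 0.01. GSDMB, a gasdermin, stood at 8.27, 8.23 and 8.65 with control siRNA and at 9.22, 9.44 and 9.85 with HER2 siRNA (1.12 ± 0.21), and PNMT fell by 0.76 ± 0.15. FBXL20 rose by 0.78 ± 0.14, PGAP3 by 0.51 ± 0.09 and ORMDL3 by 0.49 ± 0.10. With the GAPDH covariate 4 rose, and with equal array medians 6 rose and 6 fell. Of 16 luminal genes 4 rose and 1 fell, 31.2% against 34.1% over all genes, with a median of 0.01. GATA3, a luminal transcription factor, rose by 0.50 ± 0.09 and the mucin MUC1 by 0.59 ± 0.12, while TFAP2A fell by 0.52 ± 0.11. The other rises, ELF5 (0.30 ± 0.10) and TFAP2C (0.28 ± 0.09), ended without HER2 siRNA replicate 2 or 3 or control replicate 1 or 3, and with the GAPDH covariate (adjusted p = 0.123 and 0.348).

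Genes of cell death changed in both directions. In the BCL2 family 5 of 14 rose and 4 fell, with a median of 0.17, and 3 rose with the GAPDH covariate. BMF, a BH3-only protein that promotes apoptosis, stood at 7.73, 7.28 and 7.36 with control siRNA and at 8.61, 8.26 and 8.10 with HER2 siRNA (0.87 ± 0.16, adjusted p = 0.000296), and the pore-forming BAX rose by 0.43 ± 0.09. BCL2, which blocks apoptosis, fell from 7.25, 7.19 and 6.88 to 6.46, 6.29 and 6.25 (-0.77 ± 0.14) on its brightest probe set, and its other 3 did not pass. The mean of its probe sets did not pass either (adjusted p = 0.242). The promoters of apoptosis BID (-0.41 ± 0.08) and BAD (-0.42 ± 0.07) fell too.

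Of 21 genes of ATF4 and endoplasmic reticulum stress 3 rose and 1 fell, 19% against 34.1% over all genes, with a median of 0.09, and with the replicate block 7 rose and 3 fell. HERPUD1 rose by 0.36 ± 0.08 and DDIT4, an inhibitor of mTORC1, by 0.39 ± 0.11. DDIT4 lost its call with the GAPDH covariate (adjusted p = 0.0574) and HERPUD1 with the mean of its probe sets (0.0726). DNAJB9, the last of the 3 (0.49 ± 0.18), and TRIB3, which fell (-0.28 ± 0.09), lost their calls when some single arrays were left out (adjusted p up to 0.198 and 0.125). DNAJB9 also lost its call with the GAPDH covariate (adjusted p = 0.497), the mean of its probe sets (0.107), equal array medians (0.0587) and no filter (0.0545). TRIB3 also lost its call with a further quantile normalisation (adjusted p = 0.0582). Without HER2 siRNA replicate 3, 6 of the list rose and none fell. Of 14 interferon-stimulated genes 3 rose and 1 fell (28.6%), with a median of 0.09. HERC5 rose by 0.77 ± 0.15, RIGI, a sensor of viral RNA, by 0.45 ± 0.10 and IFI6 by 0.56 ± 0.17, and OAS3 fell by 0.41 ± 0.09. IFI6 lost its call without HER2 siRNA replicate 3 or control replicate 1 or 2 (adjusted p up to 0.0829) and with the GAPDH covariate (0.0676), and RIGI with the mean of its probe sets (0.0739).

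Of the markers of other cell types 1 was called. The mean level over 8 tested markers of fibroblasts, leukocytes and endothelial cells ran from 6.07 to 6.24 on the control arrays and from 6.17 to 6.33 on the HER2 siRNA arrays, and 6 more, COL3A1, LUM, PDGFRB, PTPRC, CDH5 and KDR, were below the filter. COL1A1, a collagen of fibroblasts, stood at 9.44 to 10.02 over the 6 arrays and differed by 0.30 ± 0.14 (adjusted p = 0.114). The part of other cells in the results was not tested. LYZ, lysozyme, was the 1 of 8 that rose, from 4.14, 3.52 and 4.45 to 4.50, 5.19 and 5.81 (1.13 ± 0.33, adjusted p = 0.0115), and it lost its call without HER2 siRNA replicate 3 or control replicate 2. Of 6 basal and mesenchymal genes TWIST1 rose, from 8.81, 8.94 and 8.65 to 10.20, 10.47 and 10.39 (1.55 ± 0.10, adjusted p = 5.11e-10). FN1, at 0.36 ± 0.14 (adjusted p = 0.0553), passed with the replicate block (adjusted p = 0.0437). VIM, CDH2, SNAI1 and ACTA2 lay between -0.14 and 0.23.

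Of the 15 largest rises, 13 belonged to genes outside these lists. N4BP2L1 stood at 4.14, 4.72 and 4.62 with control siRNA and at 6.81, 7.35 and 7.97 with HER2 siRNA, the largest rise among the brightest probe sets of all genes tested (2.89 ± 0.34, adjusted p = 8.44e-07). Its other 4 probe sets differed by 0.44 to 0.70, and the mean of its probe sets by 0.66. DYNLRB2, a dynein light chain of ciliated cells, lay between 4.94 and 5.07 on the control arrays and at 7.56, 7.67 and 7.93 on the HER2 siRNA arrays (2.72 ± 0.15), and the potassium channel KCNJ13 rose by 2.59 ± 0.24. For N4BP2L1 and DYNLRB2 the control level was near or below the detection filter of 5. STON1, PGM5, CBLN2, GPC5, SOCS2-AS1, CYBRD1, ATP8A1, MECOM, HPGD and PCDH10 rose by 1.89 to 2.16. The ferric reductase CYBRD1 stood at 5.98, 6.19 and 6.35 against 7.69, 8.06 and 8.65, with replicate 3 the highest of both groups. Among the 15 largest falls, UHRF1, which guides DNA methylation after replication, went from 9.73, 10.04 and 10.06 to 7.26, 7.56 and 7.77 (-2.41 ± 0.16). ZNF367, a zinc finger protein, fell by 2.44 ± 0.15, the kinetochore genes CENPK and KNL1 by 2.22 ± 0.23 and 2.08 ± 0.18, and MND1 (-2.15), SHCBP1 (-2.13) and MTFR2 (-2.13) were close to these.

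**Figure D4:**
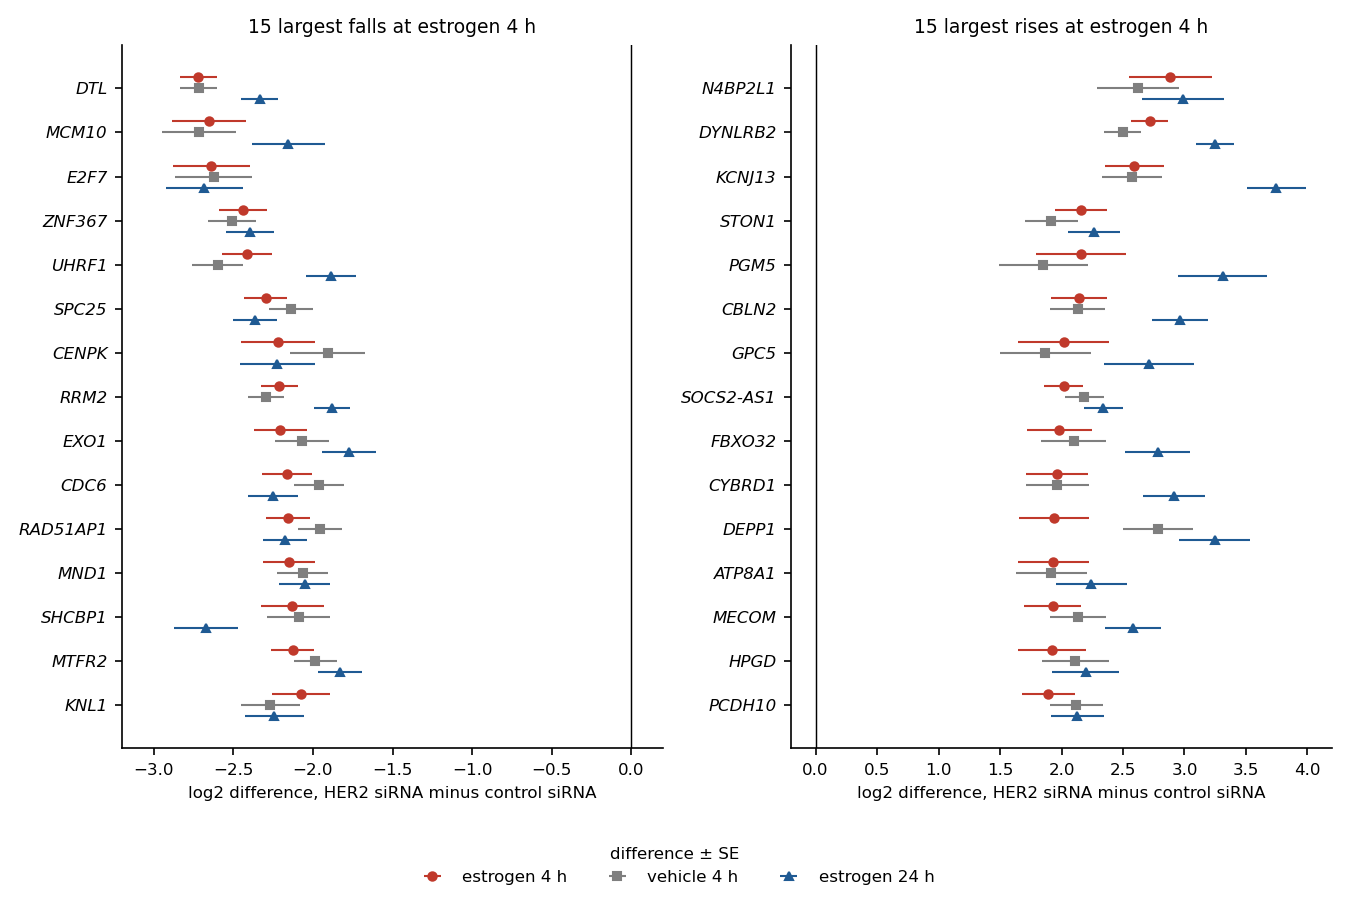
Log2 difference (HER2 siRNA minus control siRNA, ± SE) of the 15 genes with the largest falls and the 15 with the largest rises at estrogen 4 h (red circles), with the same difference at vehicle 4 h (grey squares) and estrogen 24 h (blue triangles). The genes were picked by the red values, from -2.72 (DTL) to 2.89 (N4BP2L1), and the other conditions, on other arrays, have the same sign for each gene.

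The effect with estrogen was set against the effect with vehicle at the same time, which used other arrays. With vehicle at 4 h 2361 genes rose (16.5%) and 2548 fell (17.8%). Of the 2408 genes that rose with estrogen, 1856 also rose with vehicle, which is 77.1% of the first list and 78.6% of the second, and 1 fell. Of the 2478 that fell with estrogen, 2040 also fell with vehicle (82.3% and 80.1%), and none rose. The difference between these effects called 0 genes (limma, 0%), and 403 had an unadjusted p under 0.05 (2.81%). No alternative gave a call. Estrogen effect minus vehicle effect was 0.21 for ERBB2 (95% confidence interval -0.12 to 0.54), 0.09 for RRM2 (-0.25 to 0.42) and 0.03 for GINS2 (-0.21 to 0.27). These genes fell with either treatment, so a value above 0 is a smaller fall with estrogen. The intervals were wider for estrogen-induced genes: 0.26 for PGR (-0.49 to 1.01), 0.49 for MYC (-0.22 to 1.19) and 0.61 for TFF1 (0.14 to 1.08), the last with an adjusted p of 0.999.

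Several genes had the smallest p for this difference without passing. RASGRP1, an activator of RAS, stood at 4.37, 5.63 and 5.02 with control siRNA and 5.76, 6.48 and 7.01 with HER2 siRNA under estrogen, against 4.07, 3.92 and 4.43 and 3.99, 3.68 and 3.77 with vehicle. Its siRNA effect was 1.41 ± 0.32 with estrogen and -0.33 with vehicle. All 6 vehicle arrays of RASGRP1, and 1 control array with estrogen, stood below the detection filter of 5, so its vehicle value and the difference of effects rest on levels not above it. The difference of effects was 1.74 ± 0.45 for RASGRP1, 0.76 ± 0.19 for SUSD3 and 0.65 ± 0.15 for CD81-AS1, each with an adjusted p of 0.999. On the other side were CMPK2 (-0.58 ± 0.18), LINC01191 (-0.58 ± 0.18) and KRTAP5-9 (-0.44 ± 0.11). Among estrogen-induced genes 2 rose and 10 fell with vehicle, with a median of -0.21, against 4 and 7 and a median of 0.11 with estrogen.

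More genes were called after 24 h of estrogen than after 4 h. At that time 3080 genes rose (21.5%) and 2939 fell (20.5%), and these included 2058 (85.5%) of the rises and 2131 (86.0%) of the falls seen at 4 h. Mitosis genes had a median of -1.94 at 24 h and -1.43 at 4 h, FOXO-induced genes 0.94 and 0.58, and fatty acid genes -0.72 and -0.48. In these lists the change between times was called for no mitosis gene, 1 FOXO-induced gene and 1 fatty acid gene. The medians of cholesterol genes (-0.81 at 24 h and -0.59 at 4 h) and of serine and folate genes (-0.44 and -0.13) were also lower at 24 h. The change was called for 0 genes in either list. Medians of some further lists moved little or shrank. They were -1.33 and -1.21 for helicase and origin genes, -0.48 and -0.49 for G1 and S genes, and -0.26 and -0.51 for MAPK genes. ERBB2 differed by -1.09 at 24 h and -1.35 at 4 h. The difference between times was called for 32 genes (0.223%), of which 27 were higher at 24 h (0.188%) and 5 lower (0.0349%). With the replicate block 106 genes were called, and without the 3 arrays of the series that are numbered apart 10. Without HER2 siRNA replicate 3, the array with conflicting labels, 42 were called. The placenta-type alkaline phosphatase gene ALPP differed by 0.08 ± 0.15 at 4 h and 1.91 ± 0.15 at 24 h, and STC2, a secreted glycoprotein, by 0.47 ± 0.21 and 2.18 ± 0.21. DSCAM-AS1, a noncoding RNA of luminal breast cancer, was already up at 4 h (0.82 ± 0.15) and stood at 2.41 ± 0.15 at 24 h. SCD fell further, from -0.93 ± 0.08 to -1.58 ± 0.08. MB, myoglobin, rose at 4 h by 0.56 ± 0.07 and differed by -0.09 ± 0.07 at 24 h.

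**Figure D5:**
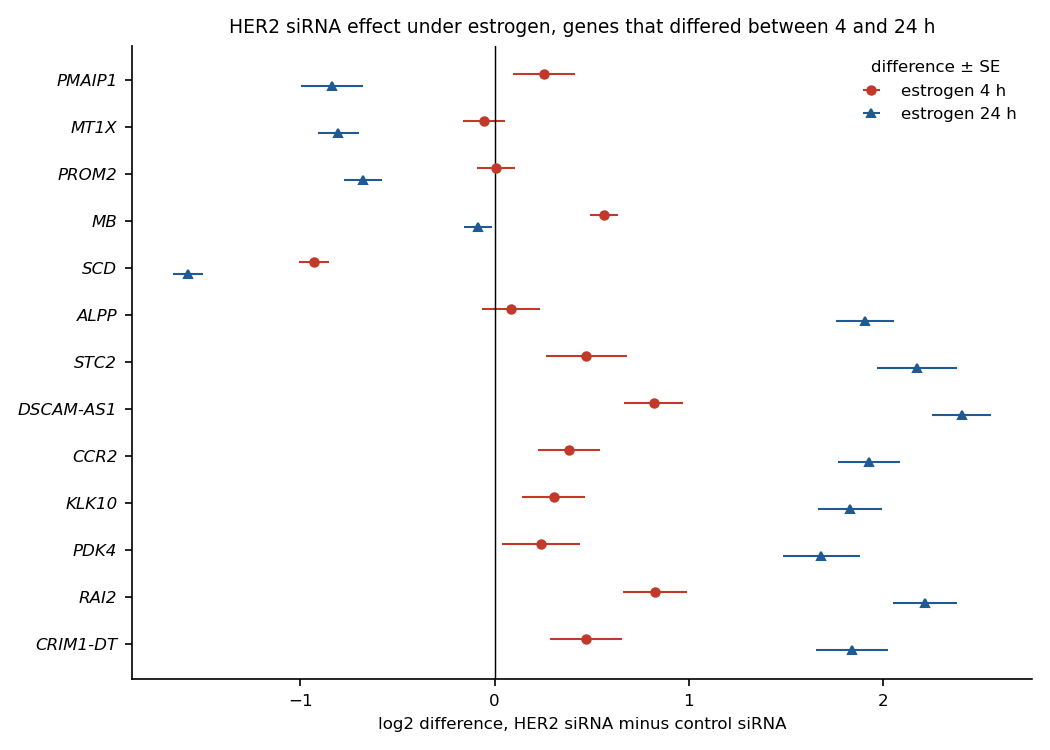
Log2 difference (HER2 siRNA minus control siRNA, ± SE) under estrogen at 4 h (red circles) and 24 h (blue triangles) for 13 genes whose difference changed between the times (adjusted p under 0.05, limma), picked by the size of that change. ALPP, with a mean level over all arrays of 4.85 and so below the filter of 5, went from 0.08 to 1.91. STC2 went from 0.47 to 2.18, while SCD lies at -0.93 at 4 h and -1.58 at 24 h.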

How the data were processed

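Total RNA of BT-474 cells was read on 24 HG-U133 Plus 2.0 arrays. The authors deposited 1 log2 value per probe set and array, made with RMA (background correction, quantile normalisation and summary) per the submitters' processing notes, with no version given. No scanner files were used here. Array number limits the precision.

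Of 54675 probe sets, 41091 were annotated to 1 gene, 1801 to several, 11721 to none and 62 were controls. The probe set with the highest mean over the 24 arrays stood for each of 19775 genes, and 14335 genes with a log2 level of at least 5 in at least 3 arrays were tested. Group means of all 8 groups were fitted with limma 3.58.1 in R 4.3.3 (lmFit, eBayes), and contrasts were adjusted by Benjamini-Hochberg over all tested genes. Spread therefore came from all 24 arrays. No other sample columns were left out.

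Members, gene lists and tests were chosen with earlier results of these data known. The 26 lists hold 553 symbols, of which 472 were tested. The filter removed 39, and 42 were matched by no single-gene probe set. Named are ERBB2, ESR1, E2F1 and MYC, the 15 largest called differences each way without overlap of arrays, up to 5 members per list by p, all members of the HER family, E2F, fatty acid, estrogen-induced and steroid receptor lists, and for differences of effects up to 8 genes each way, or 3 each way by p where none passed. Others are said to be picked after their values were seen.

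Replicate numbers come from the sample titles. Deviations of the 3 same-numbered pairs of the estrogen 4 h groups correlated at 0.386, 0.365 and 0.273, so the numbers were taken to pair these arrays, and a fit with the replicate number as a block was run. That block covered all 24 arrays, and pairing was less clear elsewhere. Same-numbered pairs correlated at 0.435, 0.134 and 0.141 with vehicle at 4 h, and at 0.176, 0.079 and 0.352 with estrogen at 24 h. For HER2 siRNA replicate 2, a control array of another number correlated more (0.180 with vehicle at 4 h, 0.109 with estrogen at 24 h). Further alternatives changed the filter, the probe set rule, the scaling, the weights, the prior, the GAPDH covariate and the arrays used. Figures were drawn with matplotlib 3.10.9.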

Additional observations from a re-analysis of the deposited data

Results flagged for a closer look

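The HER2 siRNA effect under estrogen differed between 24 h and 4 h for 13 genes named by size (limma, difference of effects, adjusted p under 0.05). Values are log2 differences of HER2 siRNA minus control siRNA, 24 h minus 4 h. The 3 largest differences were 1.82 ± 0.21 for ALPP, 1.70 ± 0.29 for STC2 and 1.59 ± 0.21 for DSCAM-AS1. They were 1.55 ± 0.23 for CCR2, a chemokine receptor, 1.53 ± 0.23 for KLK10, a kallikrein, and 1.39 ± 0.24 for RAI2. PDK4, a kinase that holds back pyruvate oxidation, had 1.44 ± 0.28 (adjusted p = 0.0292), and CRIM1-DT had 1.37 ± 0.26 (adjusted p = 0.0255). Mean levels over all 24 arrays were near or below the filter of 5 for ALPP (4.85), PDK4 (4.88), CRIM1-DT (5.25), KLK10 (5.28) and CCR2 (5.35). Their small differences at 4 h may thus rest on levels near the filter.

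On the other side, the desaturase SCD and myoglobin (MB) both had -0.65, with adjusted p of 0.00705 and 0.0046. PMAIP1, which encodes the BH3-only protein NOXA, went from 0.26 at 4 h to -0.84 at 24 h (-1.09 ± 0.22, adjusted p = 0.0385). The metallothionein MT1X had -0.75 ± 0.15 and the prominin PROM2 -0.69 ± 0.14. Leaving out single arrays ended the calls of PMAIP1 (adjusted p up to 0.141), MT1X (0.129), PROM2 (0.126), PDK4 (0.109) and CRIM1-DT (0.102).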

How the results depend on the processing

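The count of 4886 genes at 4 h ran from 3774 (GAPDH covariate) to 5646 (array weights) over the gene-level alternatives, and was 5487 with the replicate block. Leaving out each array of the groups in turn gave 3956 to 4561 calls, of which 1924 to 2311 were higher and 2021 to 2281 lower, with 117 to 203 genes higher and 297 to 325 lower at least 2-fold. With every probe set tested on its own, 7973 probe sets were called, 3668 higher and 4305 lower, and 262 and 486 of these at least 2-fold, as more features were tested. With the mean of probe sets 77 genes were at least 2-fold higher. Higher calls were 49.3% of all calls, and 43.7% with equal array medians.

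The difference between estrogen and vehicle called 0 genes in every alternative, with 227 to 824 at an unadjusted p under 0.05. Leaving out arrays gave 0 to 0.

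The 32 genes that differed between 24 h and 4 h (27 higher, 5 lower) were the least stable count, and the causes were not tested. The replicate block gave 106 (90 higher, 16 lower), and with the number series as a term 77 (61 and 16). Without the 3 arrays numbered apart 10 were called (8 and 2), with array weights 90 (68 and 22) and with an intensity trend and robust prior 50 (42 and 8). A fit of the compared groups alone called 20, of which 2 were lower, and with the replicate block 54 (47 higher), the last chosen after seeing the data. Lower calls were 8 with a stricter filter and 3 with the mean of probe sets or with every probe set. Leaving out arrays gave 21 to 42 calls, 19 to 36 higher and 2 to 6 lower.

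Of 228 named genes 159 were called at 4 h. Of these, 138 kept the call under every alternative that gave them a value, 21 lost it in at least 1, and none changed sign. At most 19 of the 20 alternatives gave a gene a value. The fit of every probe set on its own gave none, so probe sets of 1 gene that disagree are not counted here. Beside the calls the report names, the replicate block brought IFIH1 past the threshold (adjusted p = 0.0451). The mean of probe sets moved the fold of 22 named genes by over 1.5 times, of which 21 passed and none changed sign. Besides those the report gives, these were SPRED1 (-0.87), POLA2 (-0.75), BRCA1 (-1.12), SCD5 (-0.33), IDI1 (-0.31), KNL1 (-1.05), MTFR2 (-1.33), STON1 (1.25), PGM5 (0.74), PCDH10 (0.74) and ATP8A1 (0.88). Probe sets of 1 gene can disagree, and levels near the filter of 5 limit the folds of dim genes.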
